A study of Caenorhabditis elegans with 9 samples.

Results

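Small heat shock proteins are chaperones built around an alpha-crystallin domain. They bind proteins that are losing their fold, without using ATP, and hold them until Hsp70 and its J-domain partners refold them. Best known in Caenorhabditis elegans is the hsp-16 family, which heat shock factor HSF-1 switches on after heat. Other worm genes of the class are active without stress, in muscle, in the embryo or in long-lived larvae, and these are described here in L2 larvae of wild type, of an hsf-1 deletion mutant and of that mutant with an hsf-1::gfp transgene.

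The 10 genes were chosen by name, as small heat shock protein genes with a symbol outside the hsp-16 series, from 20389 genes in the deposited table: hsp-12.1, hsp-12.2, hsp-12.3, hsp-12.6, hsp-17, hsp-25, hsp-43, sip-1, F08H9.3 and F08H9.4. All 10 were found in the table. That description was not borne out for F08H9.3 and F08H9.4, which the RefSeq gene table now names hsp-16.20 and hsp-16.21; they are kept here under their sequence names.

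RNA of whole animals was sequenced in 9 libraries, 3 for each of 3 genotypes. These were wild type (strain N2), homozygous hsf-1(ok600), called the mutant or ok600 larvae, and strain AM1061, in which rmSi1[hsf-1::gfp] was added to the ok600 background, called the transgenic line. Each library came from a pool of 500 L2 larvae gathered over several collections at 30 h after eggs had been laid within 2 h, and the stated temperature was 20 °C for all. The mutant and the transgenic line share the ok600 allele. The mutant larvae were GFP-negative offspring of strain OG576, whose mothers carried ok600 over the balancer hT2, marked by bli-4(e937), let-?(q782) and the GFP array qIs48. No label names the promoter that drives the transgene. Nothing states that libraries of 1 genotype were grown separately, so p-values and q-values reflect no more than how these libraries vary, which may be technical, and no heat shock is named.

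The deposited tables hold 1 FPKM value (fragments scaled by transcript length and by mapped fragments) for a gene in a genotype, into which the authors merged its 3 libraries. The value of each library is therefore not shown, and the error beside a level is its deposited interval, for which no confidence level is stated. Sequencing depth is unknown. Genes for muscle, intestine, neurons, pharynx, epidermis and germ line were looked up in 6 lists of 6 markers, all of them above 0 in every genotype, and the 6 adult or sperm genes summed to an FPKM of 1.75 in wild type, 3.71 in ok600 larvae and 2.67 in the transgenic line. For hsf-1, the gene that ok600 deletes in part, the FPKM was 25.3 in wild type, 21.4 in ok600 larvae and 69.3 in the transgenic line, a value over the whole gene that checks neither the deletion nor the transgene.

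The products differ in the parts around the alpha-crystallin domain, and the annotated genes differ in size. In Ensembl release 115 the longest proteins of hsp-12.2, hsp-12.3 and hsp-12.6 have 110, 109 and 110 residues, with hsp-12.1 close to them, those of F08H9.3 and F08H9.4 147 each, hsp-17 149, sip-1 159, hsp-25 219 and hsp-43 393. The hsp-12 genes, sip-1, hsp-17, F08H9.3 and F08H9.4 have 1 or 2 introns, whereas hsp-25 has 5 and hsp-43 has 6. The hsp-25 gene has 4 annotated coding transcripts whose proteins run from 108 to 219 residues, and the deposited table gives it 5 groups of transcription starts, so that its single FPKM sums over isoforms.

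**Figure D1:**
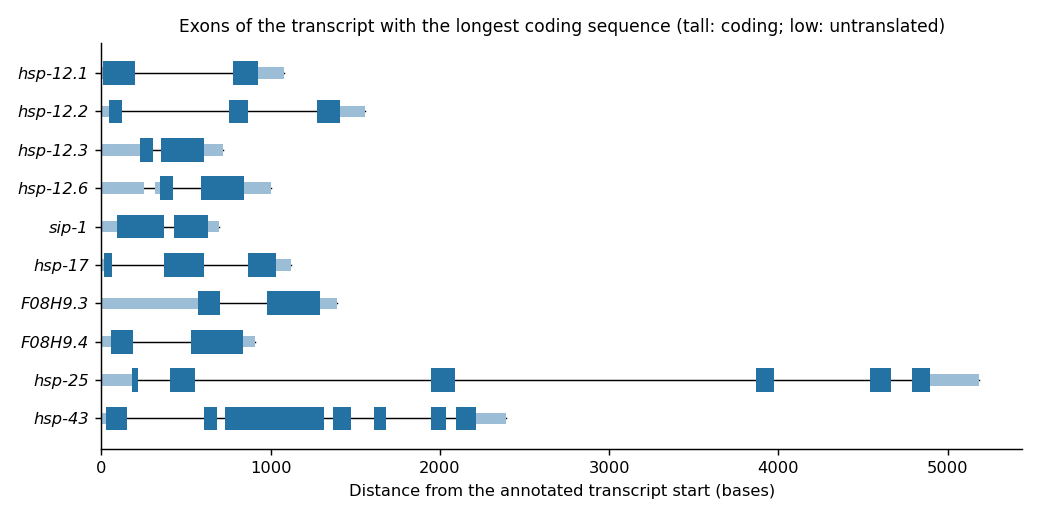
Exons of the annotated transcript with the longest coding sequence of each gene, drawn to scale from the transcript start (x axis, bases; tall boxes are coding, low boxes untranslated, lines are introns). The genes of the hsp-12 group, sip-1, hsp-17 and the F08H9 genes are shorter than hsp-43 and hsp-25. The hsp-25 gene has 5 introns, among them the longest drawn.

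Positions are those of the deposited table on build ce10, with starts counted from 1. The hsp-25 gene (C09B8.6) is in a locus on chromosome X, 6031434 to 6039461, that it shares with ipp-5, and hsp-43 (C14F11.5) is on chromosome X, 6233113 to 6235505. On chromosome III, hsp-12.2 (C14B9.1, 8138024 to 8144565) shares its locus with phka-1, while sip-1 (F43D9.4, 10506008 to 10506703) has its own. On chromosome V, hsp-17 (F52E1.7, 8383902 to 8385907) shares a locus with F52E1.14, and F08H9.3 (14461928 to 14462753) lies next to F08H9.4 (14463573 to 14464359). On chromosome IV, hsp-12.3 (F38E11.1, 9444771 to 9445307) lies next to hsp-12.6 (F38E11.2, 9446368 to 9446892), and hsp-12.1 (T22A3.2) is on chromosome I, 10581577 to 10582600. The locus of a gene that shares it spans all its genes. Reads from overlapping genes could have been split between them, and the 3 genes with a shared locus are also the 3 most abundant in wild type.

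In these larvae, for which no heat shock is named, the class ran from one of the most abundant RNAs to genes listed at 0. In wild type, hsp-25 was at an FPKM of 944 (interval 487 to 1401), the place 189 among all 20389 genes, hsp-12.2 at 273 (62.6 to 476) and hsp-17 at 150 (35.4 to 264). Lower down came hsp-43 at 47.3 (12.5 to 82.1), sip-1 at 15.8 (2.49 to 29.1) and hsp-12.1 at 12.96 (0 to 29.9). The remaining 4 genes, hsp-12.3, hsp-12.6, F08H9.3 and F08H9.4, were below an FPKM of 1 in every genotype. The interval of hsp-25 lay above that of the next gene in all 3 genotypes. Of the other neighbours in the order, sip-1 and hsp-12.1 were apart in the mutant, and the intervals of all further neighbouring pairs overlapped in each genotype.

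**Figure D2:**
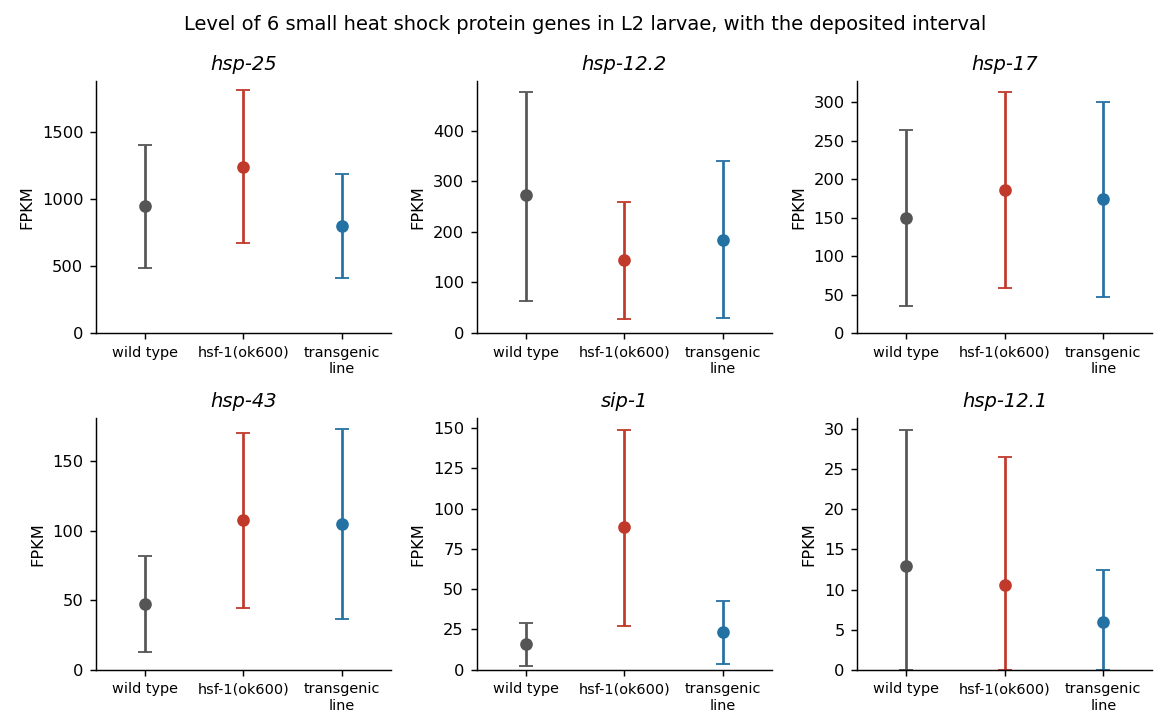
FPKM (y axis, from 0, a different scale in each panel) of the 6 genes that reached an FPKM of 1, in the 3 genotypes (x axis); points are the authors' value over 3 libraries and bars the deposited interval. The mutant point of sip-1, 88.7, stands far above the other points of its panel, and for hsp-43 the wild-type point, 47.3, is the low one.

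The hsp-25 protein is found at the dense bodies and M-lines that anchor the contractile filaments of body wall muscle, and binds vinculin and alpha-actinin. Its RNA was at 944 (487 to 1401) in wild type, 1239 (671 to 1807) in ok600 larvae and 795 (410 to 1182) in the transgenic line. The mutant was the highest and the transgenic line the lowest, with intervals that overlapped throughout. The mutant value was 1.31-fold that of wild type, and the authors' deposited table gives a q of 0.309. By itself hsp-25 made up 65.4% of the summed FPKM of the 10 genes in wild type, 69.7% in ok600 larvae and 61.7% in the transgenic line. In bulk RNA of whole larvae, fewer cells of a type and less RNA per cell cannot be told apart. Of 6 body wall muscle marker genes, 0 passed in the authors' deposited table, and their summed FPKM was 2685, 2600.0 and 2732 in wild type, mutant and transgenic line.

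A function of hsp-17 in the larva is less well defined. The gene was at 150 (35.4 to 264) in wild type, 186 (58.9 to 313) in ok600 larvae and 174 (47.4 to 299.6) in the transgenic line. These were the most even levels among the 6 genes above an FPKM of 1, with a span of 0.31 on the log2(FPKM + 1) scale, and for the mutant the authors' deposited table gives a q of 0.66.

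The proteins of the hsp-12 group are among the smallest of the class, with very short ends beside the alpha-crystallin domain, and those studied in the test tube showed no chaperone activity. The group was dominated by hsp-12.2, at 273 (62.6 to 476) in wild type, 144 (27.8 to 258) in ok600 larvae and 185 (30.5 to 339) in the transgenic line. Wild type was the highest, and the intervals of all 3 genotypes overlapped. The mutant value was 0.528 of wild type, and in the authors' deposited table an unadjusted p of 0.0441 became a q of 0.242, so that the gene did not pass. Of the 6 genes tested, hsp-12.2 and hsp-12.1 were those with a lower level in the mutant. The hsp-12.1 gene was at 12.96 (0 to 29.9), 10.6 (0 to 26.6) and 5.91 (0 to 12.4), with a lower bound of 0 in every genotype, and the authors' deposited table gives a q of 0.88.

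Insulin signalling is known to hold down hsp-12.6, which DAF-16 switches on in long-lived animals. This gene and its neighbour hsp-12.3 were at or near 0 here. For hsp-12.3 the FPKM was 0.33 (0 to 0.877) in wild type, 0.594 (0 to 1.32) in ok600 larvae and 0 in the transgenic line, and for hsp-12.6 it was 0, 0.277 (0 to 0.594) and 0. Neither was tested by the authors, and no fold is given. The summed FPKM of the 4 hsp-12 genes was 287 in wild type, 156 in ok600 larvae and 191 in the transgenic line.

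F08H9.3 was listed at 0 in wild type and the mutant and at 0.579 (0 to 1.56) in the transgenic line, and F08H9.4 at 0 in all 3. A listed 0 need not mean that there was no RNA: of 76 genes named as cytosolic ribosomal proteins, 2 were also listed at 0 in at least 1 genotype. In every genotype, as for F08H9.4, 0 of the 76 were so listed.

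Of the 10 genes, 2 rose in the mutant, sip-1 and hsp-43, and 0 fell. The authors' deposited table tested 6 of the 10 genes, and 4 of those did not pass a q of 0.05. Over all genes tested, 2.93% were called higher and 2.9% lower by the same rule. The 10 genes were listed with earlier results of these data known, so the count describes them and is no test. On the log2(FPKM + 1) scale, 6 of the 10 were higher, 2 lower and 2 equal in the mutant, with a median difference of 0.29. This median takes in the 4 genes below an FPKM of 1 in every genotype, and hsp-12.3 and hsp-12.6 are among the 6 higher. Over genes that reached an FPKM of 1 in either genotype the median was 0.15, which is therefore not of a like set.

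The sip-1 protein is known from oocytes and embryos, where it protects proteins at acidic pH. The RNA was at 15.8 (2.49 to 29.1) in wild type, 88.7 (27.1 to 149) in ok600 larvae and 23.3 (3.82 to 42.7) in the transgenic line. The mutant stood alone at the high end, and its lower bound lay just under the upper bound of wild type. The rise was 5.61-fold, 2.42 on the log2(FPKM + 1) scale, and the q is 0.00616 in the authors' deposited table. It carried sip-1 from place 5726 in the order of all genes to place 1600, while the transgenic line had it at place 4684. The transgenic line was 1.47-fold wild type and 0.262 of the mutant, with an interval that overlapped those of both.

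Germ line genes were looked at beside sip-1. Of 6 (glh-1, pgl-1, pgl-3, glp-1, fbf-1 and mex-5), 5 were tested and 0 passed in the authors' deposited table, 5 were higher in the mutant, and their summed FPKM was 55.0 in wild type, 65.0 in ok600 larvae and 52.4 in the transgenic line. The one nearest to the threshold was mex-5, an embryo polarity gene, at 3.64, 10.8 and 4.73, for which the authors' deposited table gives a q of 0.086. Over the list the median log2(FPKM + 1) difference between mutant and wild type was 0.60, and the gene that was lower, glh-1 (31.0 in wild type and 25.02 in the mutant), made up the largest share of the sum. Their part in the sip-1 difference was not tested.

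The hsp-43 protein has been located in reproductive tissue and in the body wall. The gene was at 47.3 (12.5 to 82.1) in wild type, 108 (44.7 to 171) in ok600 larvae and 105 (36.4 to 173) in the transgenic line. Both ok600 genotypes were high and close to each other, and wild type was low, with intervals that overlapped. The rise in the mutant was 2.28-fold, 1.17 on the log2(FPKM + 1) scale, and the q is 0.0156 in the authors' deposited table. The transgenic line was 2.22-fold wild type, and 0.974 of the mutant. In the transgenic line sip-1 was thus nearer to wild type and hsp-43 nearer to the mutant, a difference between the genes that was not tested.

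Markers of other tissues were set beside the rises of sip-1 and hsp-43. Of the 6 neuron markers 1 passed in the authors' deposited table, as did 1 of the 6 epidermis markers, both higher in the mutant, and 0 of 6 passed for intestine and for pharynx. The neuron marker was the synaptobrevin gene snb-1, at 303 (141 to 464) in wild type, 624 (296 to 897) in ok600 larvae and 421 in the transgenic line, and the epidermis marker was the cuticle collagen gene rol-6, at 315 (160 to 467), 586 (320.0 to 850.1) and 475. The epidermis list summed to an FPKM of 1979 in wild type, 2612 in ok600 larvae and 2474 in the transgenic line. That sum lay mostly in dpy-13 (1289, 1592 and 1524), which did not pass, and in rol-6. As for hsp-43, both ok600 genotypes were above wild type in the sum, but 4 markers were higher and 2 lower in the mutant. The neuron list summed to 846, 1240 and 885, with the mutant the highest and snb-1 the largest part. Of its markers 5 were higher and 1 lower in the mutant. Median log2(FPKM + 1) differences were 0.31 for epidermis and 0.20 for neurons. Over genes that reached an FPKM of 1 in either genotype the median was 0.15. Of the 6 pharynx markers, 5 were lower in the mutant, with a median log2(FPKM + 1) difference of −0.52. The part of these tissues in the 2 rises was not tested.

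No gene of the 10 had an interval in one genotype that was clear of its interval in another. In each of the 3 comparisons the count was 0 of the 6 genes that reached an FPKM of 1. Over all genes that reached an FPKM of 1 in either genotype compared, it was 0.887% for the mutant against wild type, 1.37% for the transgenic line against the mutant and 0.685% for the transgenic line against wild type. Such a rule is strict, since the half-width of an interval had a median of 68.0% of the value among wild-type genes at an FPKM of 20 or more. For the 6 genes it ran from 45.8% (hsp-25 in the mutant) to 126% (hsp-12.1 in the mutant). For the transgenic line, 4 of the 10 genes were higher and 4 lower than in wild type, and 2 were higher and 7 lower than in the mutant. These counts take in hsp-12.3, hsp-12.6 and F08H9.3, which stayed below an FPKM of 1. Against the mutant the median log2(FPKM + 1) difference of the 10 was −0.23, beside −0.19 over genes that reached an FPKM of 1 in either genotype. Against wild type the medians were 0 and 0.001. These comparisons share their samples, so their directions are not independent.

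The genes next to the 10 were looked up as well. In the gene order of RefSeq on WBcel235, 16 other protein-coding genes neighbour the 10, of which 12 were tested and 0 passed in the authors' deposited table. Over all genes tested, 2.93% were called higher and 2.9% lower, so a count of 0 among 12 does not set the neighbours apart. Beside hsp-43 lies rml-3, at 140 in wild type, 226 in ok600 larvae and 154 in the transgenic line, for which the authors' deposited table gives a q of 0.164, the lowest among the 12. On either side of sip-1 lie urm-1, at 22.3, 9.82 and 11.2, and sly-1, at 32.8, 23.9 and 26.7, which were lower in the mutant, where sip-1 was higher. The partners that share a locus were far below the small heat shock gene in each case, at 18.4 in wild type for phka-1 beside hsp-12.2, 16.37 for F52E1.14 beside hsp-17 and 26.2 for ipp-5 beside hsp-25.

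Other genes with a like course over the 3 genotypes were sought for hsp-12.1, hsp-43 and sip-1, whose levels spanned at least 1 on the log2(FPKM + 1) scale. Likeness was the distance over 3 centred values among 10319 genes that reached an FPKM of 5 somewhere, and 3 points do not make a pattern rare. For sip-1, 21 genes lay within a distance of 0.25, the nearest being Y58A7A.3 at 1.57, 12.7 and 2.73. It passed in the authors' deposited table (q of 0.00893), whereas C54D10.13 and nos-1, the next in distance, did not (0.542 and 0.549). They were at 0.966, 9.92 and 1.92 and at 0.307, 5.68 and 0.842. At such low levels the added 1 shrinks a change, so a like course is not a like fold. For hsp-43 there were 141, led by tbc-15, mig-32 and mgl-2, and for hsp-12.1 there were 337, led by D1053.4, sto-5 and C50A2.3.

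The hsp-16 genes, which make the heat-induced small heat shock proteins, were far lower in sum in the same larvae, above all in the mutant. Their summed FPKM over 6 genes was 102 in wild type, 1.27 in ok600 larvae and 12.23 in the transgenic line, while that of the 10 genes described here was 1443, 1777 and 1288. The hsp-16 sum was almost wholly hsp-16.2, at 97.1 (23.2 to 169.6), 0.857 (0 to 2.88) and 10.5 (0.359 to 20.7). Its intervals in mutant and wild type did not overlap, yet the authors' deposited table gives it a q of 0.437. Of the 6 hsp-16 genes, 2 were tested and 0 passed there, and 4 were listed at 0 in every genotype. The hsp-16.2 gene shares its locus with hsp-16.41, srt-41 and srt-42, so reads could have been split there too. Reads shared between near-identical hsp-16 copies make single values uncertain, and the difference between the families was not tested.

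Hsp70 and its partners refold what small heat shock proteins hold, and several genes of this machinery fell in the mutant. A list of 12 genes was used for it, which also takes in daf-21 and hsb-1. In the authors' deposited table, 6 fell, 0 rose, 4 did not pass and 2 were not tested. Over all genes tested, 2.93% were called higher and 2.9% lower. The list had a median log2(FPKM + 1) difference of −1.52, beside 0.15 over genes that reached an FPKM of 1 in either genotype. Those that fell were hsp-1, daf-21, which encodes Hsp90, hsp-110, and of the J-domain genes dnj-19, dnj-13 and dnj-12. Those with the highest wild-type level among the genes that did not pass were the cochaperone genes bag-1 (90.2 in wild type and 20.6 in the mutant) and unc-23 (73.3 and 51.4), and hsb-1 (42.0 and 39.0), whose product binds HSF-1.

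The order of hsp-25 and the constitutive Hsp70 gene hsp-1 was not the same in the 3 genotypes. In wild type hsp-1 was at 2492 (1587 to 3399), 2.64-fold the level of hsp-25, and in the transgenic line at 2820 (1827 to 3813), 3.55-fold that of hsp-25. In the mutant hsp-1 was at 379 (202 to 556), and the level of hsp-25 was 3.27-fold that of hsp-1. The intervals of the pair did not overlap in any of the 3 genotypes. The 10 small heat shock genes summed to 0.579 of the hsp-1 level in wild type, 4.69 in ok600 larvae and 0.457 in the transgenic line. Between mutant and wild type, hsp-1 passed the authors' test and hsp-25 did not.

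Because the hsp-25 protein sits at the anchors of muscle filaments, genes that attach muscle to its surroundings were set beside it. Of 16 such genes in the authors' deposited table, 2 rose and 0 fell, where 2.93% of all genes tested were called higher and 2.9% lower. The list had a median log2(FPKM + 1) difference of 0.18, beside 0.15 over genes that reached an FPKM of 1 in either genotype. Those that rose were mup-4, for a transmembrane protein of the epidermal attachment, and the beta integrin gene pat-3. From wild type to mutant, mup-4 went from 72.0 (40.9 to 103) to 117 (69.9 to 163), with 76.0 in the transgenic line. For pat-3 the levels were 93.7 (49.3 to 138), 153 (85.4 to 221) and 92.3. The authors' deposited table gives a q of 0.0195 for mup-4 and 0.0474 for pat-3. Both were near wild type in the transgenic line, where hsp-43 was near the mutant. The vinculin gene deb-1, whose product binds hsp-25, was at 259, 294 and 291, the zyxin gene zyx-1 at 388, 297 and 272 and the perlecan gene unc-52 at 181, 206 and 240.2, none of which passed in the authors' deposited table.

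**Figure D3:**
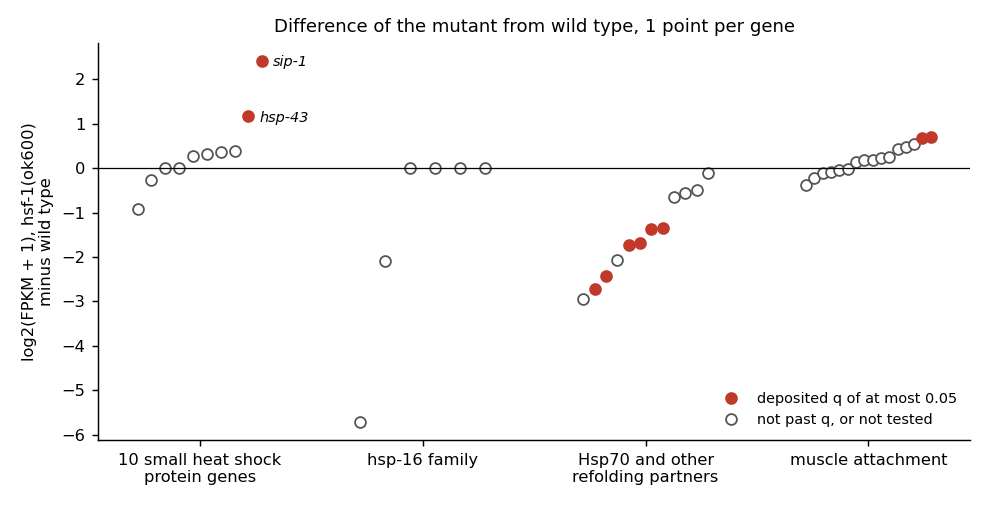
Difference of hsf-1(ok600) from wild type in log2(FPKM + 1) (y axis), 1 point per gene in 4 lists (x axis); filled points have a deposited q of at most 0.05. Among the small heat shock protein genes described, sip-1 (2.42) and hsp-43 (1.17) stand above the rest, and the filled points of the refolding partners all lie below 0.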

How the data were processed

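Alignment with TopHat2 and quantification with Cuffdiff on build ce10 were done by the authors, per the submitters' processing notes; their versions, the annotation and the strand setting are not stated. FPKM values with bounds were deposited per genotype, per the file headers, and so were p-values and q-values for the mutant against wild type. Short transcripts have FPKM values that lean on the assumed fragment length. A planned model on values per library could not be run, since 1 value per genotype is given, and the fallback was the deposited q.

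Members and lists were chosen with earlier results of these data known. A gene was called when its q was 0.05 or less and its FPKM reached 1 in either genotype, and all 12615 genes the authors tested met that minimum. Elsewhere, deposited intervals that do not overlap were counted. Differences are of log2(FPKM + 1), which understates the change of low genes, and folds are ratios of FPKM. Symbols came from the RefSeq table of WBcel235 (19879 of 20389 names matched) and gene structures from Ensembl release 115. Of 15876 loci of 1 gene, 2204 have the RefSeq length if starts count from 0 and 223 if they count from 1. Most have it under neither reading. Starts were therefore taken to count from 0, and 1 was added. Named were all members, called genes of the 4 comparison lists (hsp-16 genes, refolding partners, DAF-16 targets, muscle attachment) with up to 3 others of each of the highest wild-type FPKM, and 3 genes of most like course per member. The genes mex-5, glh-1, snb-1, rol-6, dpy-13 and sod-3, the neighbours and the locus partners were chosen after their values were seen. The code that applies the call rules was checked for direction on simulated tables with planted changes, which does not test the authors' p-values. Python 3.11.15, pandas 2.3.3 and numpy 2.4.6 were used. Sequences of these genes were not used here.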

Additional observations from a re-analysis of the deposited data

How the results depend on the processing

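Each gene's log2 difference was recomputed with pseudocounts of 0.1 and 0.01 and after centring on the genotype median over genes that reached an FPKM of 5 throughout, and for the mutant against wild type with the FPKM of the test table. No difference changed its sign (0 of 30, 0 of 30, 0 of 30 and 0 of 10). After centring, 2 of 30 were flagged as moved, both for the transgenic line against the mutant, where bounds of 0 left no tolerance. They hardly changed, hsp-12.3 from −0.67 to −0.68 and hsp-12.6 from −0.353 to −0.357. Sizes did move in 6 of 30 at each smaller pseudocount, all of hsp-12.3, hsp-12.6 or F08H9.3, which stayed below an FPKM of 1. For the mutant against wild type, hsp-12.6 went from 0.35 to 1.92 and 4.84, and for the transgenic line against the mutant hsp-12.3 went from −0.67 to −2.80 and −5.92, and no fold is given for these genes. Dropping the filter or adjusting over the genes past it could not move a count, since all genes tested pass it. The count of 2 called genes was also 2 at a minimum FPKM of 5 and with a minimum log2 fold change of 1 in size, and was 1 at a q of at most 0.01, where hsp-43 no longer passed, while over all genes the calls went from 369 higher and 366 lower to 190 and 163. The count of genes with separate intervals was 0 under every filter and scaling tried. Summed FPKM of the 10 genes in the mutant over wild type came to 1.23, and to 2.72 over the 7 genes with an unshared locus, since hsp-25, hsp-12.2 and hsp-17 are then left out. For the transgenic line against wild type the ratio was 0.892, and 1.76 over those 7. The other ratios lay between 0.648 and 1.25, with no error given for a sum. No paired analysis was possible because the deposited tables hold 1 value per genotype, and leaving out a replicate was not run for the same reason. Depth is unknown, and the intervals limit what could be told apart.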

Other observations

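Since hsp-12.6 is known as a gene under insulin signalling, 18 other genes linked to its transcription factor DAF-16 were looked at. Of these, 14 were tested in the authors' deposited table, of which 1 rose and 0 fell. Over all genes tested, 2.93% were called higher and 2.9% lower, so 1 call among 14 does not set the list apart. Over the 18 the mutant differed from wild type by a median of −0.01 in log2(FPKM + 1). Over genes that reached an FPKM of 1 in either genotype the median was 0.15, which is not of a like set. The one that rose was the alcohol dehydrogenase gene sodh-1, at 23.4 (6.43 to 40.4) in wild type, 78.8 (34.3 to 123) in ok600 larvae and 14.5 (3.06 to 25.8) in the transgenic line, and the authors' deposited table gives a q of 0.00249. The superoxide dismutase gene sod-3, a common reporter of DAF-16, was at 0.246, 0.96 and 1.34 and was not tested. The genes of the list with the highest wild-type level were dod-6 (853, 967 and 1205), gpd-2 (252, 208 and 432) and lys-8 (113, 65.0 and 103). Of these, gpd-2 was labelled as low in data and given no test by the authors, and in the authors' deposited table neither dod-6 nor lys-8 passed.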
